A study of Arabidopsis thaliana with 3 samples.

Results

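Gibberellin is sensed in Arabidopsis by the GID1 receptors. A receptor that has bound the hormone attaches to a DELLA protein, a growth repressor of the GRAS family, and the F-box protein SLY1 then brings the DELLA to the ubiquitin ligase that marks it for breakdown. In roots this breakdown is known to release cell elongation and division. The 10 genes described here are the 3 receptor genes GID1A (AT3G05120), GID1B (AT3G63010) and GID1C (AT5G27320), the 5 DELLA genes GAI (AT1G14920), RGA (AT2G01570), RGL1 (AT1G66350), RGL2 (AT3G03450) and RGL3 (AT5G17490), SLY1 (AT4G24210), and GA3OX1 (AT1G15550, also called GA4), which encodes a gibberellin 3-oxidase of the last step in the synthesis of active hormone. They were chosen by locus and make up 10 of the 33446 genes in the root table. All 10 were found there, 6 by symbol and 4 by synonym (RGL for RGL1, ATGID1A, ATGID1C and GA4).

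RNA was sequenced from roots of 14-day-old seedlings of Col-0, grown on vertical agar plates under long days, in 3 libraries of a single condition. By the labels the plants carried the INTACT transgene, in which the 35S promoter drives a nuclear envelope domain fused to GFP and a biotin tag. Which transformed line gave the RNA is not given in the sources used here, and untransformed roots were not analysed here. The deposited table holds 1 column of RPKM (reads scaled by gene length and by library size) for roots, so no spread between libraries can be given. Whether and how the 3 libraries were joined is not given in the sources used here, and the column could also hold a single library. The spacing of the low values corresponded to a library size of about 118700000 reads. Intervals below are 95% intervals for counting error at that depth and do not cover differences between plants. In whole roots, fewer cells of a type and less RNA per cell cannot be told apart. Of 14 genes that mark root cell types or root uptake of nitrate and water, 13 were matched and 13 had RPKM above 1 (3.09 to 203 RPKM). Of 11 photosynthesis genes of leaves, 10 were matched and 5 had RPKM above 1 (0.00982 to 29.6 RPKM, median 1.44), and their part in the values below was not tested. For comparison, 56.0% of all listed genes and 68.4% of protein-coding genes had RPKM above 1.

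The DELLA proteins are named for a short signature near their start, part of the region that the hormone-bound receptor holds. The stretch of coding sequence around it is shown for the 5 genes because it is the receptor contact they share, and because it lets a reader see how far the copies differ where reads had to be assigned to one of them. Each line gives 60 bases of the TAIR10.1 reference from 5′ to 3′ on the coding strand, and the capitals mark the 15 bases aligned with the codons of the signature in GAI.
GAI: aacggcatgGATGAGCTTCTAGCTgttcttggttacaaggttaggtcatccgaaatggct
RGA: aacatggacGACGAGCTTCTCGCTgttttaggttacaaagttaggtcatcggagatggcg
RGL1: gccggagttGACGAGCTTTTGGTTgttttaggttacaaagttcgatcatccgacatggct
RGL2: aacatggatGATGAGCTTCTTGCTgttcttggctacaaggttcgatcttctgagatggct
RGL3: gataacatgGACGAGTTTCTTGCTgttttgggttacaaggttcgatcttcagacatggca
The stretches lie at chr1:5149486-5149545 (GAI, plus strand), chr2:257165-257224 (RGA, minus strand), chr1:24748411-24748470 (RGL1, plus strand), chr3:821100-821159 (RGL2, minus strand) and chr5:5765738-5765797 (RGL3, minus strand). All of them are coding exon. Of the 15 capital bases, RGL2 shared 14 with GAI, RGA shared 13, RGL3 shared 12 and RGL1 shared 11. Over all 60 bases the number shared with GAI was 47 for RGL2, 46 for RGA, and 45 for both RGL1 and RGL3.

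Transcript levels of the 10 genes spanned 11.6-fold (95% interval 10.8 to 12.4), with GID1B highest and RGL3 lowest. All 10 had RPKM above 1, the level at which the study called a gene expressed, against 56.0% of all listed genes and 68.4% of protein-coding genes. The median of the 10 was 19.4 RPKM. It was 2.21 RPKM over all listed genes, 4.86 RPKM over protein-coding genes and 10.5 RPKM over the genes above 1. From the highest to the lowest, the order was GID1B, RGA, SLY1, GAI, GID1A, GID1C, GA3OX1, RGL1, RGL2 and RGL3. Each of the 9 steps between neighbours in this order was larger than the counting error, since none of the intervals overlapped. Whether the steps exceed the spread between libraries could not be tested. The order of GID1B, RGA, SLY1, GAI and GID1A among themselves also depended on how length was treated. RGA came first in estimated reads not divided by length, and SLY1 in reads per base of coding sequence. The widest step was between GA3OX1 and RGL1, a ratio of 2.70 (95% interval 2.53 to 2.88), with 7 genes above this gap and the 3 RGL genes below it.

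**Figure D1:**
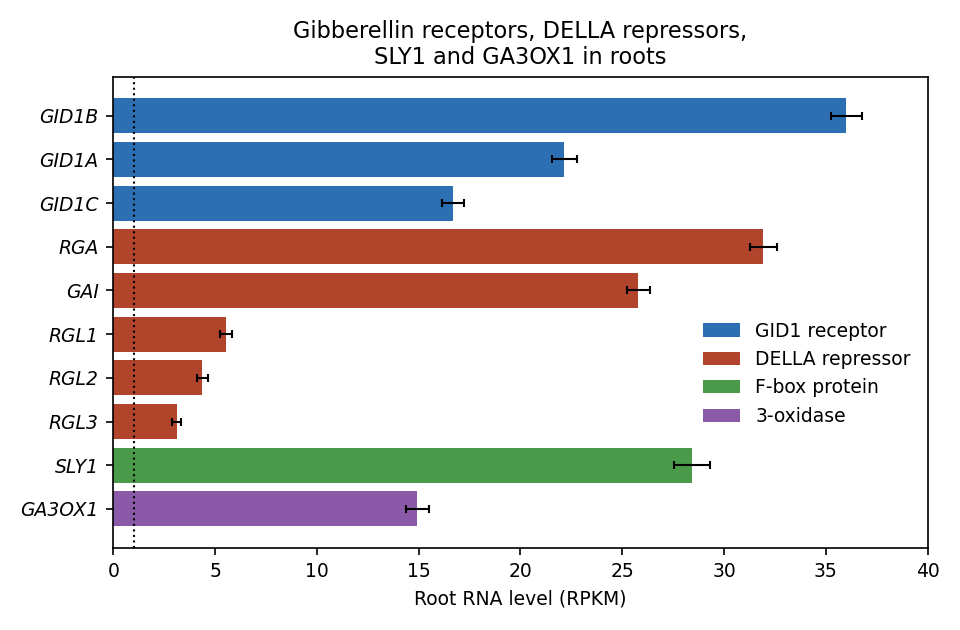
Root RNA level of each gene in RPKM, grouped by role. Bars are the values of the deposited root column, error bars are 95% intervals for counting error only, and the dotted line marks 1 RPKM. GID1B at 36.0 RPKM and RGA at 31.9 RPKM lead their families, and the RGL genes lie between 3.11 and 5.54 RPKM.

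Of the receptors, GID1B was listed at 36.0 RPKM (95% interval 35.2 to 36.8, about 8710 reads), which placed it above 90.0% of all listed genes. GID1A was listed at 22.1 RPKM (21.5 to 22.8) and GID1C at 16.7 RPKM (16.1 to 17.2). All 3 encode soluble receptors with overlapping roles in growth. The level of GID1B was 1.63 times that of GID1A (95% interval 1.57 to 1.68) and 2.16 times that of GID1C (2.08 to 2.24). GID1A and GID1C, which are closest to each other in sequence, differed by a ratio of 1.33 (1.27 to 1.38). GID1B made up 48.1% of the summed RPKM of the receptors (95% interval 47.4% to 48.9%), GID1A 29.6% and GID1C 22.3%.

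The DELLA genes fell into a higher and a lower set. RGA was listed at 31.9 RPKM (95% interval 31.3 to 32.6) and GAI at 25.8 RPKM (25.2 to 26.4). These are the DELLA genes best known for restraining vegetative growth, and they stood above 88.7% and 86.3% of all listed genes. RGL1 was listed at 5.54 RPKM (5.25 to 5.84), RGL2, known for holding back seed germination, at 4.38 RPKM (4.13 to 4.63), and RGL3, known for a link to jasmonate signaling, at 3.11 RPKM (2.90 to 3.33). The lower set was thus above 1 RPKM but under the median of the expressed genes, with RGL3 above only 17.2% of them. The level of GAI was 4.65 times that of RGL1 (95% interval 4.39 to 4.93), whereas RGA and GAI differed by a ratio of 1.24, with an upper bound of 1.28. RGA made up 45.1% and GAI 36.5% of the summed RPKM of the DELLA genes, together 81.6% (95% interval 81.0% to 82.1%). RGL1 made up 7.83%, RGL2 6.19% and RGL3 4.40%.

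**Figure D2:**
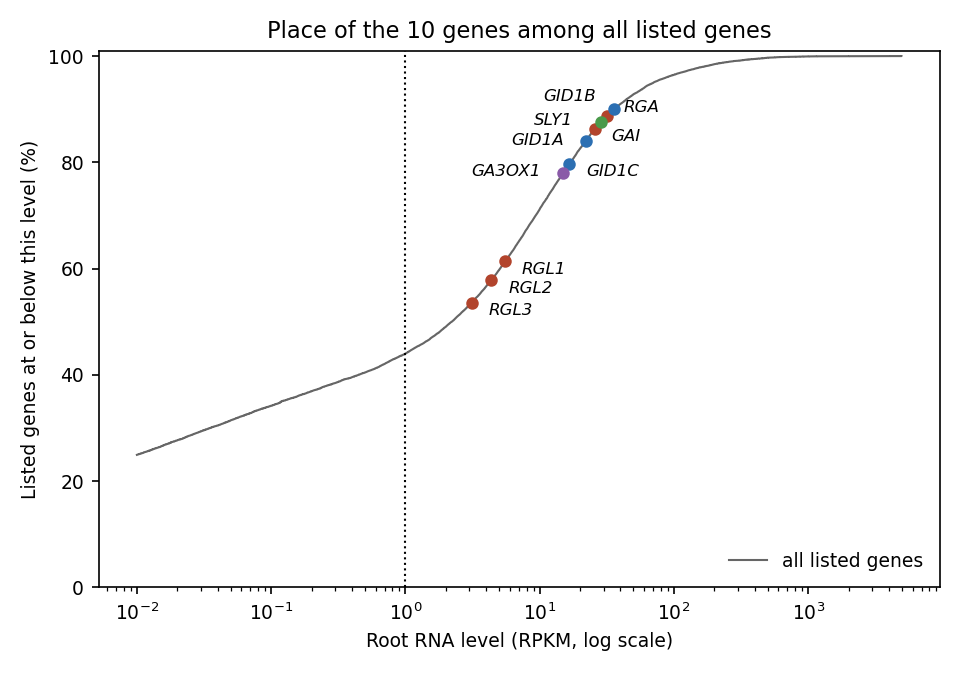
Share of the 33446 listed genes at or below each RPKM level in roots (log scale, starting at 0.01 RPKM), with the 10 genes marked in the colors of their roles (receptors blue, DELLA genes red, SLY1 green, GA3OX1 purple). The dotted line marks 1 RPKM. GID1B, RGA, SLY1, GAI, GID1A, GID1C and GA3OX1 lie between 77.9% and 90.0%, and the RGL genes lie between 53.6% and 61.4%.

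The DELLA genes summed to 70.7 RPKM and the receptor genes to 74.8 RPKM, a ratio of 0.946 (95% interval 0.926 to 0.965). This ratio turned on how length was treated. It was 1.13 in estimated reads not divided by length, to which the longer DELLA transcripts add more. It was 0.716 in reads per base of coding sequence, as the receptor transcripts have a larger untranslated share. The ratio was thus under 1 in both measures scaled by length and above 1 in reads alone. Whether its distance from 1 exceeds the spread between libraries could not be tested. These are levels of RNA, and the amount of DELLA protein, which the pathway controls by breakdown, was not measured.

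SLY1, the F-box protein that recognizes the DELLA proteins, was listed at 28.4 RPKM (95% interval 27.5 to 29.3), between RGA and GAI. Its level was 0.401 times the summed level of the DELLA genes (95% interval 0.388 to 0.415). As with the DELLA and receptor totals, the value turned on length, and it was 0.206 in estimated reads and 0.755 in reads per base of coding sequence, alternatives added after the data were seen. SNE (SLEEPY2, listed as SLY2), a related F-box gene that can take over part of its role, was listed at 10.4 RPKM (9.84 to 10.9). SLY1 was thus 2.74 times as high as SNE (95% interval 2.57 to 2.91) and made up 73.2% of their sum.

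GA3OX1 was listed at 14.9 RPKM (95% interval 14.4 to 15.5). It was the higher of a pair of gibberellin 3-oxidase genes with appreciable RNA in roots, as GA3OX2 was listed at 9.37 RPKM (8.93 to 9.84). The ratio of GA3OX1 to GA3OX2 was 1.59 (95% interval 1.50 to 1.69). GA3OX4 was listed at 0.0711 RPKM, about 9 reads, and GA3OX3 at 0.00804 RPKM, about 1 read. A single read allows a level of up to 0.0447 RPKM for GA3OX3. GA3OX1 made up 61.2% of the summed RPKM of the 4 genes (95% interval 59.8% to 62.7%) and GA3OX2 38.4%. GA3OX4 overlaps another annotated gene on the same strand, so its few reads are uncertain.

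**Figure D3:**
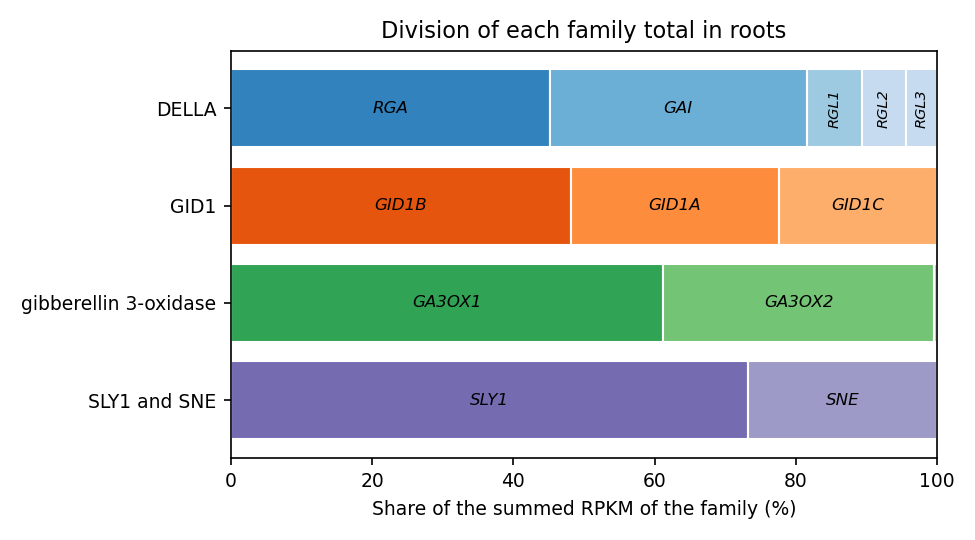
Share of each gene in the summed RPKM of its family in roots, in percent. RGA and GAI hold 81.6% of the DELLA total, GID1B 48.1% of the GID1 total, GA3OX1 61.2% of the 3-oxidase total and SLY1 73.2% of the total of SLY1 and SNE, and the shares of GA3OX3 and GA3OX4 are too small to label.

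The rest of the pathway was described with 4 lists of genes, of which 35 of 39 could be matched to a listed name. RPKM was above 1 for 24 of them (68.6%), close to the 68.4% of protein-coding genes. Among the other genes of hormone synthesis, 8 of 13 were above 1 and the median was 1.26 RPKM. The highest were GA3, which encodes ent-kaurene oxidase, at 14.3 RPKM, and GA3OX2. The lowest were GA20OX5 at 0.00729 RPKM and GA3OX3. GA1, the gene of ent-copalyl diphosphate synthase at the start of the pathway, was named after its value was seen, and was listed at 0.0297 RPKM, about 9 reads. Of the gibberellin 2-oxidases, which inactivate the hormone, 3 of 5 matched genes were above 1. GA2OX8 was listed at 2.93 RPKM and GA2OX1 at 2.86 RPKM, against 0.184 RPKM for GA2OX7 and 0.0891 RPKM for GA2OX3. A further entry, ATGA2OX4 at 6.60 RPKM, bears a name shared by GA2OX4 and GA2OX6 and was assigned to neither. Of both lists, GA3 came closest to GA3OX1, and their intervals overlapped, with GA3OX1 at 1.04 times the level of GA3 and a lower 95% bound of 0.989.

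Of the genes whose products act on or with DELLA proteins, 10 of 11 matched genes were above 1, against 68.4% of protein-coding genes. Their median was 9.03 RPKM, and 9 lay between the levels of RGL3 and RGA. That range is wide, as RGL3 stood above 53.6% and RGA above 88.7% of all listed genes. SEC, an O-GlcNAc transferase that modifies DELLA proteins, was listed at 27.7 RPKM, and CUL1, the cullin of the ubiquitin ligase, at 19.7 RPKM. They were the highest of the matched genes. ASK1 and RBX1, further subunits of the ubiquitin ligase, were in the list but not matched. An entry named ASK1, at 331 RPKM, bears a name that this subunit shares with another gene, and was assigned to neither. The light signaling factors PIF3 and PIF4, which DELLA proteins hold back, were lowest, at 1.99 and 0.104 RPKM. The 6 GASA genes in the list, which encode small peptides and include several known gibberellin-responsive members, spread widest. RPKM was above 1 for 3 of them (50.0%), against 68.4% of protein-coding genes, and their median was 4.49 RPKM. GASA1 was listed at 207 RPKM and GASA4 at 206 RPKM, both above 98.5% of all listed genes. GASA3 was listed at 0.0698 RPKM and GASA2 at 0. The limit that a count of 0 allows, taken as 3 reads, is 0.0479 RPKM for GASA2.

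**Figure D4:**
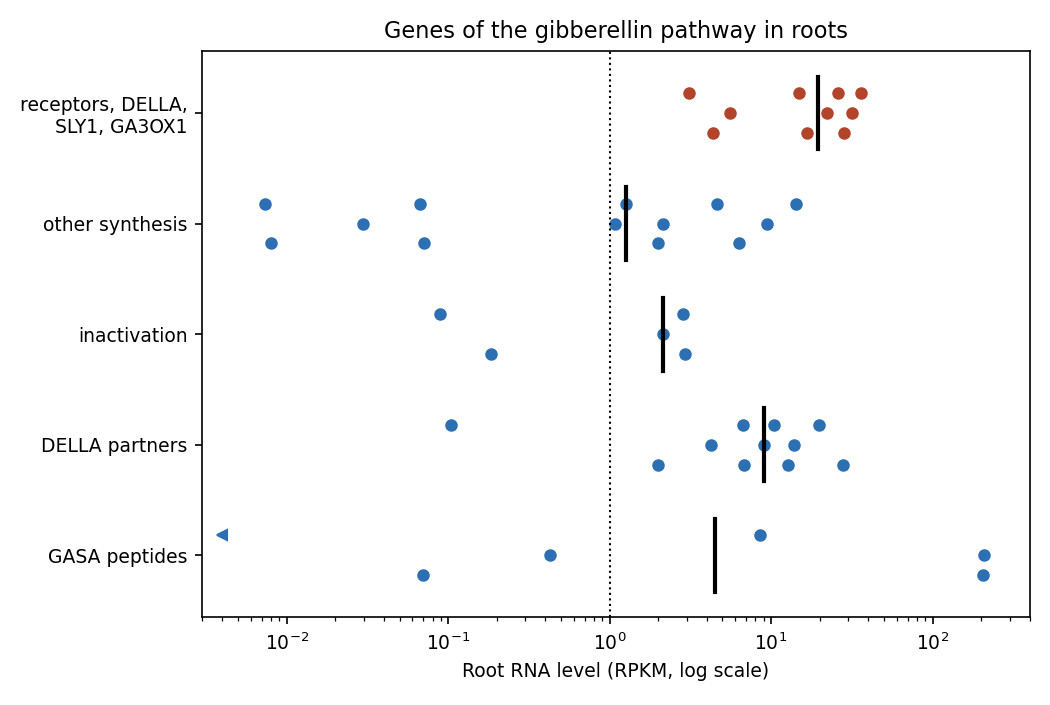
Root RNA level (RPKM, log scale) of the 10 genes and of the matched genes in 4 lists of the gibberellin pathway. Points are genes, shifted up or down for display, black lines are medians, the dotted line marks 1 RPKM and the arrowhead marks GASA2, listed at 0. The 10 genes lie between 3.11 and 36.0 RPKM, while each of the other lists reaches below 1 RPKM.

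Most of these genes have close relatives, so the sequences were examined for reads that could have come from more than a single copy. The 10 annotated transcripts hold 19335 stretches of 61 bases, the length of the reads, and 0 of these occur elsewhere in TAIR10.1. This search covered the genome sequence and not spliced transcripts. Stretches across a splice site (60 in GID1A, 58 in GID1B, 58 in GID1C and 59 in GA3OX1) were not found in the genome at all. For them the search could not show a match to another spliced transcript. Between GAI and RGA, which share 82.6% of aligned coding bases, the most alike stretches of 61 bases differ at 3 positions, and no pair of DELLA genes has a stretch with 2 or fewer mismatches. The longest run that any DELLA pair shares without a mismatch in its coding sequence is 30 bases, in GAI (chr1:5150313-5150342, plus strand) and RGA (chr2:256260-256289, minus strand). RGL2 and RGL3 share 77.3% of aligned coding bases, and the other DELLA pairs share between 67.1% and 70.5%. The receptors GID1A and GID1C are the most alike, at 84.2%, and of the 20 pairs of relatives examined they were the only pair with stretches of 61 bases within 2 mismatches. These were 6 of the 1854 in GID1A. The longest coding run without a mismatch between them spans 35 bases. It lies at chr3:1432141-1432175 in GID1A and chr5:9630597-9630631 in GID1C, both on the plus strand. This run is shorter than a read, and whether it lies within the 6 stretches was not examined.
GAI and RGA: tttccggttaaccggaattggtccaccggc
GID1A and GID1C: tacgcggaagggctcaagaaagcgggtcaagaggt

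**Figure D5:**
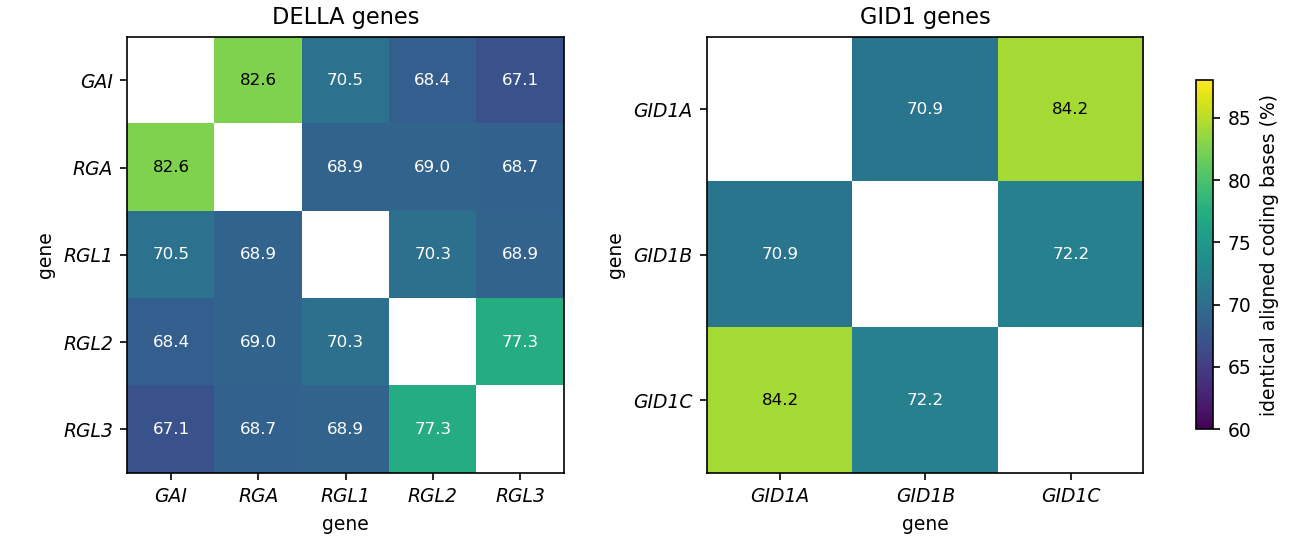
Percent of aligned coding bases that are identical between each pair of DELLA genes (left) and of GID1 receptor genes (right) in TAIR10.1. GAI and RGA (82.6%), RGL2 and RGL3 (77.3%) and GID1A and GID1C (84.2%) stand out from the other pairs, and the highest DELLA and receptor RNA levels belong to RGA and GID1B.

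The gene models differed by role. All 5 DELLA genes and SLY1 are annotated with a single transcript of a single exon, while the receptor genes and GA3OX1 have 2 exons. Of 27562 annotated protein-coding genes, 18.7% have only a single distinct exon interval over all their transcripts. A gene without introns whose transcripts differ in their ends is not counted in that share. GAI lies at chr1:5148982-5151415 and RGL1 at chr1:24748105-24750186, both on the plus strand. RGA (chr2:255247-257568), RGL2 (chr3:819337-821652) and RGL3 (chr5:5763989-5766246) lie on the minus strand. GID1A (chr3:1430363-1432844), GID1B (chr3:23289243-23291486), GID1C (chr5:9628990-9631291) and SLY1 (chr4:12563279-12564482) lie on the plus strand, and GA3OX1 (chr1:5344388-5346342) on the minus strand. None of the 10 overlaps another gene annotated in RefSeq for TAIR10.1. Whether their values depend on the strand setting of the read count was not tested. Coding sequence made up 456 of 1204 exon bases in SLY1, 1077 of 2039 in GID1B and 1602 of 2434 in GAI. SLY1 came after GID1B and RGA by RPKM but was the highest of the 10 genes in reads per coding base.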

How the data were processed

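Root RNA of 3 libraries was sequenced as single-end reads of 61 bases. The authors aligned the reads to TAIR10, took gene counts with HTSeq and turned them into RPKM in edgeR. The deposited values are RPKM in 1 column. TopHat2 is named as the aligner in the methods of the study, STAR in the submitters' processing notes. Tool versions, the annotation release, the strand setting and whether and how the libraries were joined are not given in the sources used here. Replicates could not be compared and no test was run.

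Listed names were matched to TAIR10.1 by locus, symbol or unambiguous synonym, which placed 32532 of 33446 (97.3%). Gene models and sequences come from RefSeq for TAIR10.1, whose annotation may differ from that of the authors. Library size was found as the size at which RPKM multiplied by annotated exon length minus 1 base gave whole reads. Of 2008 single-exon genes under 12 reads, 82.8% came within 0.05 of a whole number, where 10% of evenly spread values would. The size was chosen to make such shares high among single-exon genes, so the 10% is not a chance level for it. The search was tested on simulated data. The share was 28.1% for genes of 1000 to 4000 reads, so the reads of single genes are estimates. Whether this size is that of pooled libraries or of a single library is not known. Reads per gene were estimated from it and carry exact Poisson intervals, and intervals of ratios and shares use the Poisson variance on the log scale. Coding sequences were aligned globally with Biopython 1.88. The work was done in Python 3.11.15 (scipy 1.17.1, pandas 2.3.3).

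The genes and lists were chosen with earlier results of these data known. Besides the 10 genes, the text names the highest 2 and lowest 2 matched genes of each pathway list. It also names the relatives GA3OX2, GA3OX3, GA3OX4 and SNE, the unmatched genes of these lists, and GA1, which was chosen after its value was seen. Thresholds of 0.5 and 2 RPKM, rescaling to TPM, other sets of genes for the ranks, and other lengths were tried as alternatives.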

Additional observations from a re-analysis of the deposited data

How the results depend on the processing

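No paired analysis was possible because the values stand in 1 column of a single condition, and for the same reason no library could be left out. All 10 genes remained above the threshold at 0.5 and 2 RPKM and at 1 TPM, and the pathway lists had 24 genes above 0.5 RPKM, 21 above 2 RPKM and 24 above 1 TPM. The shares of all listed genes above these thresholds were not computed, so these counts have no background beside them. The median percentile of the 10 genes, 81.9 among all listed genes, was 77.7 among protein-coding genes and 67.7 among genes above 1 RPKM. The ratio of DELLA to GID1 totals, 0.946 in RPKM, was 1.13 in estimated reads and 0.716 in reads per coding base. In estimated reads the share of GAI and RGA was 82.7% and that of GID1B 50.1%, which was 49.1% in reads per coding base. The share of GA3OX1 moved by less than its counting interval under both measures, and so did that of GAI and RGA in reads per coding base. The level of SLY1 over the DELLA total, 0.401 in RPKM, was 0.206 in estimated reads and 0.755 in reads per coding base. The shares of the other genes were not recomputed. GA3OX1, RGL1, RGL2 and RGL3 kept the last places and GID1C the sixth under each of the 3 measures, while the order of the other 5 genes changed. Counting error of the 10 genes was at most 3.46%, and the spread between libraries is not known.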
